A study of Mus musculus with 4 samples.

Results

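The comparison described here sets the whole testis of adult XX/Sry male mice against the whole testis of adult W/Wv male mice, each measured on 1 Affymetrix Mouse Expression Array 430A. Its members are the mouse probe sets (AFFX controls left out) whose signal on the brighter of the 2 arrays reached the median signal of that array, which was met by 12216 of 22626 probe sets, or 53.99%. The W/Wv males carried the W and Wv alleles of Kit, came from a WB x B6 cross and were bought from a supplier. The XX/Sry males had 2 X chromosomes, and carried Sry as their label says. The sources used here give neither their strain, nor ages beyond "adult", nor the number of animals behind an array. The same study also holds 1 array of collagenase-isolated seminiferous tubules for each genotype, which are other RNA preparations and are quoted only as context. The design text calls both genotypes recipient males and counts a gene as different at 2-fold or more in whole testis and tubules alike, and the same fold is used here for whole testis.

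Both genotypes make a testis with few germ cells, for different reasons. Kit is the receptor for stem cell factor, and the W and Wv alleles cripple it, so that primordial germ cells and the later spermatogonia that need it are mostly lost, while Sertoli cells, which nurse germ cells inside the tubule, and Leydig cells, which make androgen between tubules, are present. In XX/Sry males the Sry gene turns an XX gonad into a testis, and the germ cells are lost because germ cells with a pair of X chromosomes do not survive in a testis. The somatic cells therefore differ in their sex chromosomes: those of W/Wv males hold an X and a Y, and those of XX/Sry males hold a pair of X chromosomes, one of them silenced by the noncoding RNA Xist.

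Values are MAS5 signals, linear intensities without unit, and are given with W/Wv first and XX/Sry second. With 1 array a group there is no replicate spread, so no test was possible: a fold is the ratio of single arrays, and "higher" or "lower" means at least 2-fold in XX/Sry. The highest of 27 bacterial control probe sets, which have no mouse target, was taken as the background bound of an array, at 76.3 on the W/Wv array and 63.9 on the XX/Sry array. Where the dimmer signal lay below its own array's bound, the fold is written "at least" and computed from the bound. In whole tissue, fewer cells of a type and less RNA per cell cannot be told apart.

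Set against W/Wv, the XX/Sry testis had lower signals for most of the germ cell genes bright enough to be members. Many of these became members through the W/Wv array alone. Signals were also lower for some genes of DNA replication and mitosis. Higher signals were found for Xist, 7 glandular kallikreins and some genes of vessels, matrix and antioxidant defence. Most Sertoli cell genes and most genes of androgen synthesis lay within 2-fold. Of the member probe sets, 615 were higher in XX/Sry (5.03%) and 644 were lower (5.27%), so 48.8% of the calls were upward. That split depends on the scaling and the brightness rule: it was 778 and 524 (59.8% upward) with each array divided by its median, and 296 and 199 (59.8%) with the brightness rule at the 75th percentile, against 2068 and 3354 (38.1%) with no brightness rule. The other members mostly sat close to a ratio of 1, with 69.9% within 1.5-fold and a median log2 ratio of -0.03. Taking 1 probe set for each of the 7385 genes with a member, 332 genes were higher (4.5%) and 366 were lower (4.96%), and these shares are the background for every gene count below. A gene that is bright on 1 array only passed the brightness rule through the group in which it is high, so a count over members is a description, and the number of called members that were bright on both arrays is given beside the counts this touches. Calls were commonest among dim members: in the dimmest 3054 by mean signal 9.14% were higher and 12.8% lower, against 3.63% and 1.24% in the brightest 3054. The brightness rule itself is a hard edge: on the W/Wv array Nup155, with 182.8, lay just inside it and Fcgr1, with 182.7, just outside, and on the XX/Sry array Ltn1, with 171.8, lay inside and Cd300a, with 171.6, outside.

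The arrays were alike in most general properties. Both had a 2% trimmed mean of 500.2 and medians of 183 and 172, and 71.9% and 71.4% of probe sets lay above the bound. The 3' to 5' signal ratio of the Gapdh control was 0.974 and 0.733, and for actin it was 1.74 and 1.41. A median log2 ratio of -0.13 was found over the 18 spike controls for hybridisation, beside -0.11 over all measured genes.

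**Figure D1:**
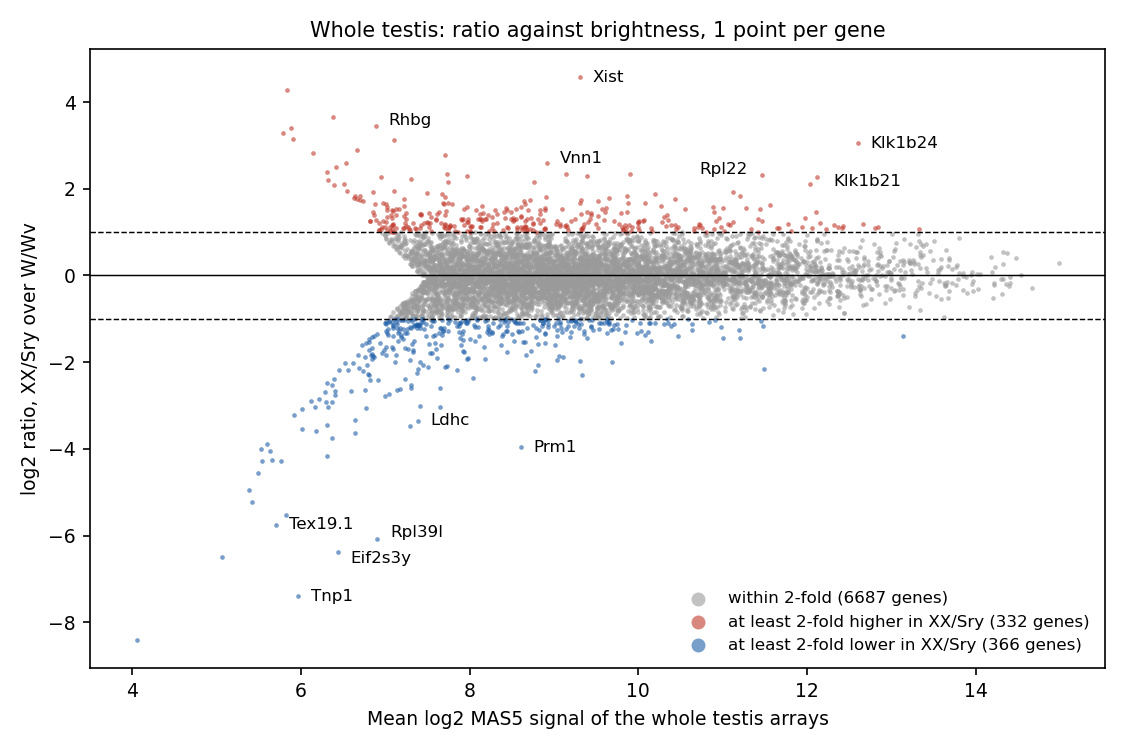
Each point is 1 of 7385 member genes, with the mean log2 MAS5 signal of both whole testis arrays on the horizontal axis and the log2 ratio of deposited signals, XX/Sry over W/Wv, on the vertical axis; dashed lines mark 2-fold. Red points are the 332 genes higher in XX/Sry and blue points the 366 lower, and the labelled Tnp1, Eif2s3y, Rpl39l and Tex19.1 are among the points low in the plot whose XX/Sry signals lie under the background bound.

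Sex chromosome genes were read first, as a check of the labels. Xist gave 131 and 3099, 23.7-fold higher. Its other member probe sets, at 34.6 and 1032 and at 24.7 and 228, differed in the same direction. Eif2s3y, the Y-linked copy of a translation initiation subunit, gave 795 and 9.5, at least 12.4-fold lower, with the XX/Sry signal under the bound. Uba1y, the Y-linked ubiquitin-activating enzyme, gave 364 and 76, 4.79-fold lower. The other 5 measured Y genes were too dim to be members. Of these, Kdm5d gave 147 and 29.2 and Usp9y 178 and 31.4, both with the XX/Sry signal under the bound, and the other Kdm5d probe sets gave 131 and 15.5 and, under the bound on both arrays, 12 and 24.6. Sry gave 23.7 and 170.2 from the brighter of its probe sets and 9.2 and 7.1, both under the bound, from the other. Of the 7 measured Y genes 5 had the lower signal in XX/Sry, and Sry and Zfy2 (at 7.3 and 56.6, under the bound on both arrays) had the higher.

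Kit was measured by a pair of member probe sets. The brighter gave 256 and 893, 3.48-fold higher, and the other gave 158 and 260. Kit marks differentiating spermatogonia and is also made by Leydig cells and mast cells, so this single difference in a tissue mixture does not assign the signal to a cell type. Kitl, its ligand from Sertoli cells, gave 3616 and 3215. Its other probe sets gave 1376 and 865, 301 and 194 and, outside the members, 170 and 108, between 1.56 and 1.59 times lower.

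Ranked by ratio with dim signals raised to the bound, the genes highest in XX/Sry came from several kinds of cell. After Xist stood Klk1b24, a glandular kallikrein protease, at 2159 and 17868 (8.28-fold higher), and its neighbour in the same cluster Klk1b16, at 79.4 and 547 (6.89-fold higher). Vnn1, a pantetheinase made by Sertoli cells, gave 198 and 1191 (6.02-fold higher). Bbox1, the last enzyme of carnitine synthesis, gave 46.9 and 406 (at least 5.32-fold higher), and the ammonium transporter Rhbg gave 36 and 389.6 (at least 5.11-fold higher), both with the W/Wv signal under the bound. Thrsp, a nuclear regulator of fatty acid synthesis, gave 251 and 1273 (5.08-fold higher), with a second probe set at 176 and 619. Sult1e1, the oestrogen sulfotransferase of Leydig cells, gave 426 and 2151 (5.05-fold higher). The remaining genes of the 15 were Tmem87a at 94.4 and 478, Rpl22, a ribosomal protein, at 1275 and 6313, the transcription factor Nfia at 113 and 555, Plbd1, a lysosomal phospholipase B-like protein, at 303 and 1477, Klk1b21 at 2029 and 9758, the PDZ-domain adaptor Gipc1 at 101 and 453 and the Nodal antagonist Lefty1 at 73.5 and 342. Their folds lay between 4.48 (a lower limit, for Lefty1) and 5.06 (for Tmem87a). Rpl22 had a second member probe set that gave 656 and 940, short of 2-fold. The other probe sets of Nfia were dim and gave 10 and 14 and 92.5 and 71.9, so neither repeated its difference.

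The genes lowest in XX/Sry were, besides Eif2s3y, mostly genes of germ cells. Prm1, the protamine that replaces histones in sperm, gave 1546 and 99 (15.6-fold lower), and its other member probe sets gave 970 and 1.0 and 978 and 28.7. Rpl39l, a ribosomal protein paralogue used by male germ cells, gave 986 and 14.6 (at least 15.4-fold lower). The transition protein Tnp1 gave 814 and 4.8 (at least 12.7-fold lower) and Prm2, the second protamine, 522 and 47 (at least 8.17-fold lower). Ldhc, the lactate dehydrogenase of spermatocytes and sperm, gave 537 and 52.5 (at least 8.4-fold lower). Then came Nxf2, an X-linked mRNA export factor of germ cells, at 575 and 69.7, Ddx25, an RNA helicase needed to complete spermatids, at 485 and 60.3, Morc1, a silencer of transposons in male germ cells, at 496 and 81.5, the chromatin remodeller Hells at 390.1 and 64.5, and Tex19.1, which also restrains transposons, at 384 and 7.1. Of these, the XX/Sry signals of Nxf2, Morc1 and Hells lay just above the bound and gave folds of 8.25, 6.08 and 6.05, and those of Ddx25 and Tex19.1 lay under it, for at least 7.58 and at least 6.01. The other 4 were Sall4, a transcription factor of undifferentiated spermatogonia, at 384 and 8.3, Tktl1, a transketolase-like enzyme, at 379 and 65.9, Spata4 at 359 and 58.2, and Taf7l, a germ cell subunit of the TFIID complex, at 354 and 28.3, with folds from 5.54 to 6.01, lower limits for all but Tktl1.

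**Figure D2:**
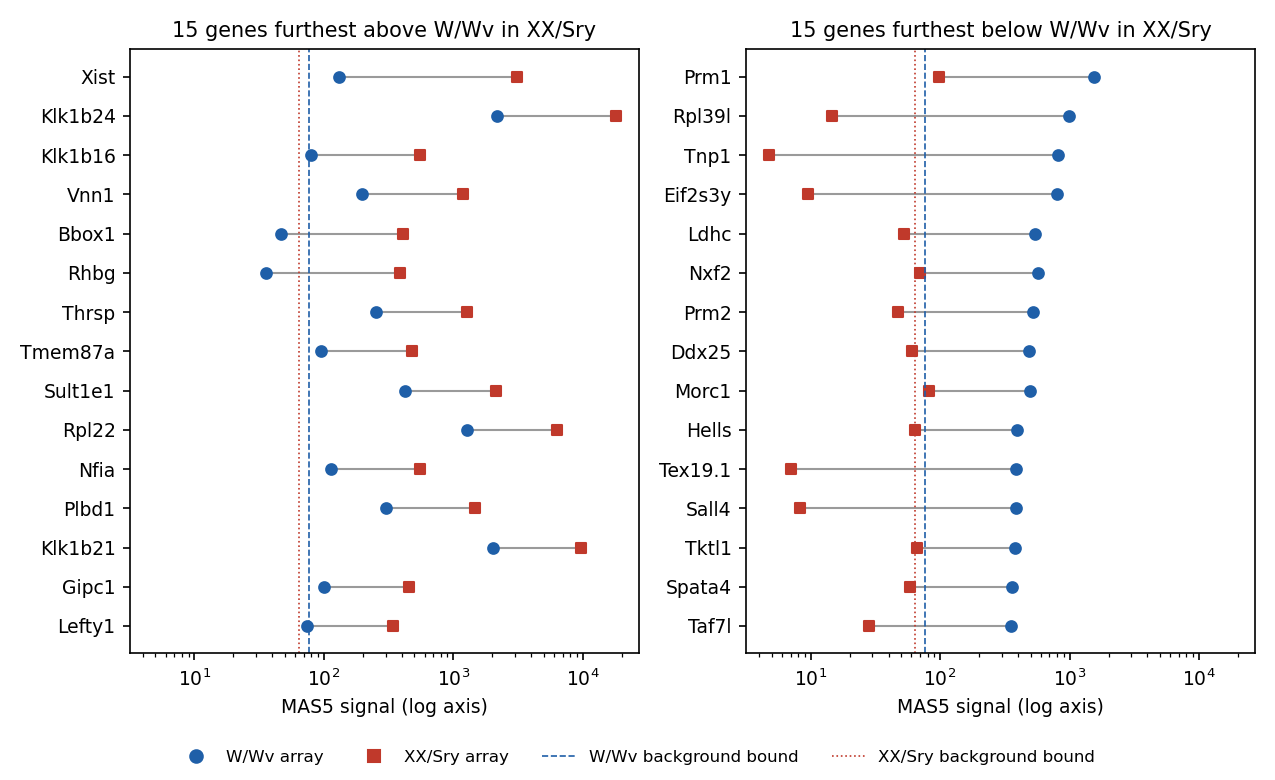
MAS5 signals (log axis) of the 15 genes furthest above W/Wv and the 15 furthest below it in XX/Sry whole testis, circles for the W/Wv array, squares for the XX/Sry array, and vertical lines for the background bounds of 76.3 and 63.9. Most of the lower genes have an XX/Sry signal at or under the bound, whereas Klk1b24, Klk1b21, Rpl22 and Sult1e1 are well above the bound on both arrays.

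Germ cell genes that were members were mostly lower in XX/Sry at the 3 stages listed. Bright on the W/Wv array only were 10 of 16 spermatogonial, 7 of 10 meiotic and 6 of 10 spermatid members. They became members through that array, so the counts of lower genes are largely set by the brightness rule. Among spermatogonial and early germ cell genes, 22 were measured and 16 were members, of which 11 were lower, 1 (Kit) was higher and 4 were neither, and the median log2 ratio over all measured genes of the list was -1.77, beside -0.11 over all genes. Of the 12 called members only 3 were bright on both arrays, Dazl and Id4, which were lower, and Kit, which was higher. Since signals under the bound have no order, the medians of these lists depend on how such signals are treated: with them raised to the bound, the spermatogonial median was -1.10, beside -0.23 over all genes, and with a constant of 70.1 added to both signals it was -1.06, beside -0.07. Dazl, an RNA-binding protein of germ cells from the fetal stage on, gave 1087 and 509.6 (2.13-fold lower), and a second probe set gave 1230 and 249. Ddx4, the germ cell RNA helicase also known as vasa, gave 305 and 0.9 (at least 4.77-fold lower), and Sall4 is given above. Stra8, the retinoic acid target that marks entry into meiosis, gave 352 and 56.5 (at least 5.5-fold lower), and Utf1, a chromatin protein of undifferentiated spermatogonia, gave 242 and 38.3 (at least 3.78-fold lower). Piwil2, Tdrd1 and Tex101, the first pair of them parts of the piRNA pathway that silences transposons, gave 343 and 159.7 (2.15-fold lower), 215 and 60.2 (at least 3.36-fold lower) and 204 and 10.5 (at least 3.2-fold lower). Id4, an inhibitor of differentiation found in spermatogonial stem cells and in Sertoli cells, gave 725 and 269 (2.69-fold lower), with other probe sets at 233 and 156 and at 371 and 136. The members within 2-fold were Tex14 at 269 and 205, Zbtb16, the spermatogonial factor PLZF, at 249 and 172, Uchl1 at 975 and 595 and Dnd1 at 243 and 139, each with the lower signal in XX/Sry. Uchl1 is a ubiquitin hydrolase of spermatogonia, and Tex14 and Dnd1 belong to the bridges between germ cells and to RNA protection in them. The 6 dim genes of the list included Gfra1, the GDNF receptor, at 115 and 12.4, and Lin28a at 173 and 7.7.

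The meiotic list had 26 measured genes and 10 members, of which 8 were lower and none higher, and 7 of the 10 were bright on the W/Wv array only. Of the 8 lower genes 1 was bright on both arrays. The median log2 ratio over all measured was -1.19, but -0.46 with signals raised to the bound and -0.45 with the constant added. Sycp3 and Sycp1, structural proteins of the synaptonemal complex, gave 278 and 69.7 (3.99-fold lower) and 304 and 22.6 (at least 4.76-fold lower). Stag3, a meiotic cohesin subunit, gave 183 and 11.5 (at least 2.87-fold lower), Tex12 219 and 9.3 (at least 3.42-fold lower) and Syce2, both further parts of the synaptonemal complex, 1089 and 458 (2.38-fold lower). Mov10l1, a helicase of the piRNA pathway, gave 212 and 104 (2.04-fold lower) and Tex15, needed for repair of meiotic breaks, 251 and 114 (2.2-fold lower), the smallest differences among the lower genes of the list. The members within 2-fold were H2ax, a histone present in all cells, at 844 and 1169, and Hspa2 at 346 and 282. The other 16 genes were dim, among them Dmc1, the meiotic recombinase, at 88 and 54.4, and Spo11, which makes the breaks that start recombination, at 42.3 and 23.6.

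In the spermatid list 10 of 25 measured genes were members, 6 lower and 2 higher. Only 1 of these 8 was bright on both arrays, and this was Odf2, which was higher. The median log2 ratio was -0.62, and -0.37 and -0.35 under the same 2 treatments. Besides the protamines and Tnp1, Tnp2 gave 318 and 3.5 (at least 4.98-fold lower), Dbil5, an endozepine-like peptide of spermatids, gave 259.7 and 48.9 (at least 4.06-fold lower), with a dim second probe set at 98 and 109, and Odf1, an outer dense fibre protein of the tail, gave 188 and 63.5 (at least 2.95-fold lower). The genes that were higher were Odf2, which is also a centrosome protein of somatic cells, at 449 and 1293 (2.88-fold higher), and Gapdhs, the glycolytic enzyme of sperm, at 86.2 and 261 (3.02-fold higher). Odf2's other probe sets, outside the members, ran the other way at 179 and 77.2 and 162 and 138. Within 2-fold lay Crem, a transcription factor of spermatids, at 259.9 and 224, and Ace, the angiotensin-converting enzyme with a testis form, at 317 and 366, although a second member probe set of Ace, with a W/Wv signal of 50.1, was at least 3.93-fold higher. Of the 15 dim genes Acr, the acrosomal protease, gave 172 and 112, and Akap4, the main fibrous sheath protein, gave 176 and 11.1.

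The signals of the 25 spermatid genes summed to 6535 in W/Wv and 3565 in XX/Sry, with 23 and 12 of them above the bound. The bounds of the tubule arrays were 46.1 (W/Wv) and 61.0 (XX/Sry), and several of the same genes lay under them. Prm1 gave 1546 in W/Wv whole testis but 23.8 in the tubules of that genotype and 156 in those of XX/Sry, and Tnp1 gave 1.5 and 29.5 in tubules. Stra8 gave 18.2 and 7.7, and Sycp1 5.3 and 24.3, in the same order. The high W/Wv values of these 4 genes were thus seen in whole testis and not in tubules, and the XX/Sry tubule signal of Prm1 came from 1 of its 3 probe sets, the others giving 15.6 and 1.5 and 3.2 and 4.8 in tubules, all under the bound.

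Some genes of DNA replication and of mitosis were lower. Of 27 members among replication genes 10 were lower, none higher and 17 neither, 3 of the lower ones were bright on both arrays, and 29 of 34 measured genes had the lower signal in XX/Sry, with a median log2 ratio of -0.68. Within the MCM helicase, which unwinds DNA at the fork, Mcm5 gave 494 and 108 (4.57-fold lower) and Mcm7 2302 and 878 (2.62-fold lower), with other member probe sets of Mcm7 at 475.5 and 217.5 (2.19-fold lower) and, short of 2-fold, at 829.7 and 455 and at 284 and 178. By contrast, Mcm2 gave 297 and 266, Mcm3 443 and 291, Mcm4 357 and 191 and Mcm6 735 and 472, none of them past 2-fold, although a dim second probe set of Mcm4 gave 170.0 and 40.4 (at least 2.66-fold lower). Among the polymerases Pole, the leading-strand catalytic subunit, gave 318 and 31.4 (at least 4.98-fold lower), Pold1, the lagging-strand catalytic subunit, 487 and 221 (2.2-fold lower) and Pola1, the primase-associated polymerase, 213 and 92.5 (2.3-fold lower). The clamp loader subunits Rfc5 and Rfc1 were lower (307 and 79.6, and 566 and 263), but a second member probe set of Rfc1 gave 288 and 280.0. Rfc2 and Rfc3 were within 2-fold, and so was Rfc4 at 279 and 162, whose second member probe set gave 335 and 129 (2.61-fold lower). Cdt1, which licenses origins, gave 354 and 116 (3.06-fold lower), Lig1, the ligase of Okazaki fragments, 191 and 74.7 (2.55-fold lower) and Top2a, the topoisomerase that untangles sister chromatids, 347 and 164 (2.12-fold lower). Pcna, the sliding clamp and the brightest of the list, gave 3327 and 2480.3, and the ribonucleotide reductase subunits Rrm1 and Rrm2 gave 533 and 374, and 205 and 272. For Rrm2 a second member probe set ran the other way, at 234 and 61.7 (at least 3.66-fold lower).

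Of the mitotic genes 16 of 29 measured were members, with 10 lower and none higher, and 2 of the lower ones were bright on both arrays. The median log2 ratio was -1.24, -0.79 with signals raised to the bound, -0.64 with the constant added and -0.21 over the genes that reach the 75th percentile of the brighter array. Cdc20, the activator of the anaphase-promoting complex, gave 638 and 189 (3.38-fold lower), and its second member probe set gave 344 and 241. The kinetochore protein Cenpf gave 346 and 66 (5.24-fold lower), but a dim second probe set, above the bound on both arrays, gave 121 and 128. The centromere histone Cenpa gave 330.1 and 112 (2.94-fold lower) and Mki67, the proliferation antigen Ki-67, 215 and 60.8 (at least 3.37-fold lower). The checkpoint kinases Bub1 and Bub1b gave 203 and 12.2 (at least 3.17-fold lower) and 219.6 and 32.6 (at least 3.44-fold lower). The cyclins Ccna2 and Ccnb2 gave 319.5 and 132 (2.42-fold lower, with a dim second probe set at 122 and 71.8) and 247 and 111 (2.22-fold lower), the ubiquitin-conjugating enzyme Ube2c 226 and 89.7 (2.52-fold lower) and the kinesin Kif23 464 and 187 (2.49-fold lower). Cdk1, which drives entry into mitosis, gave 2154 and 1362, and Cks1b, Cks2 and Mad2l1 were within 1.5-fold. All of these genes serve germ cells and somatic cells alike.

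**Figure D3:**
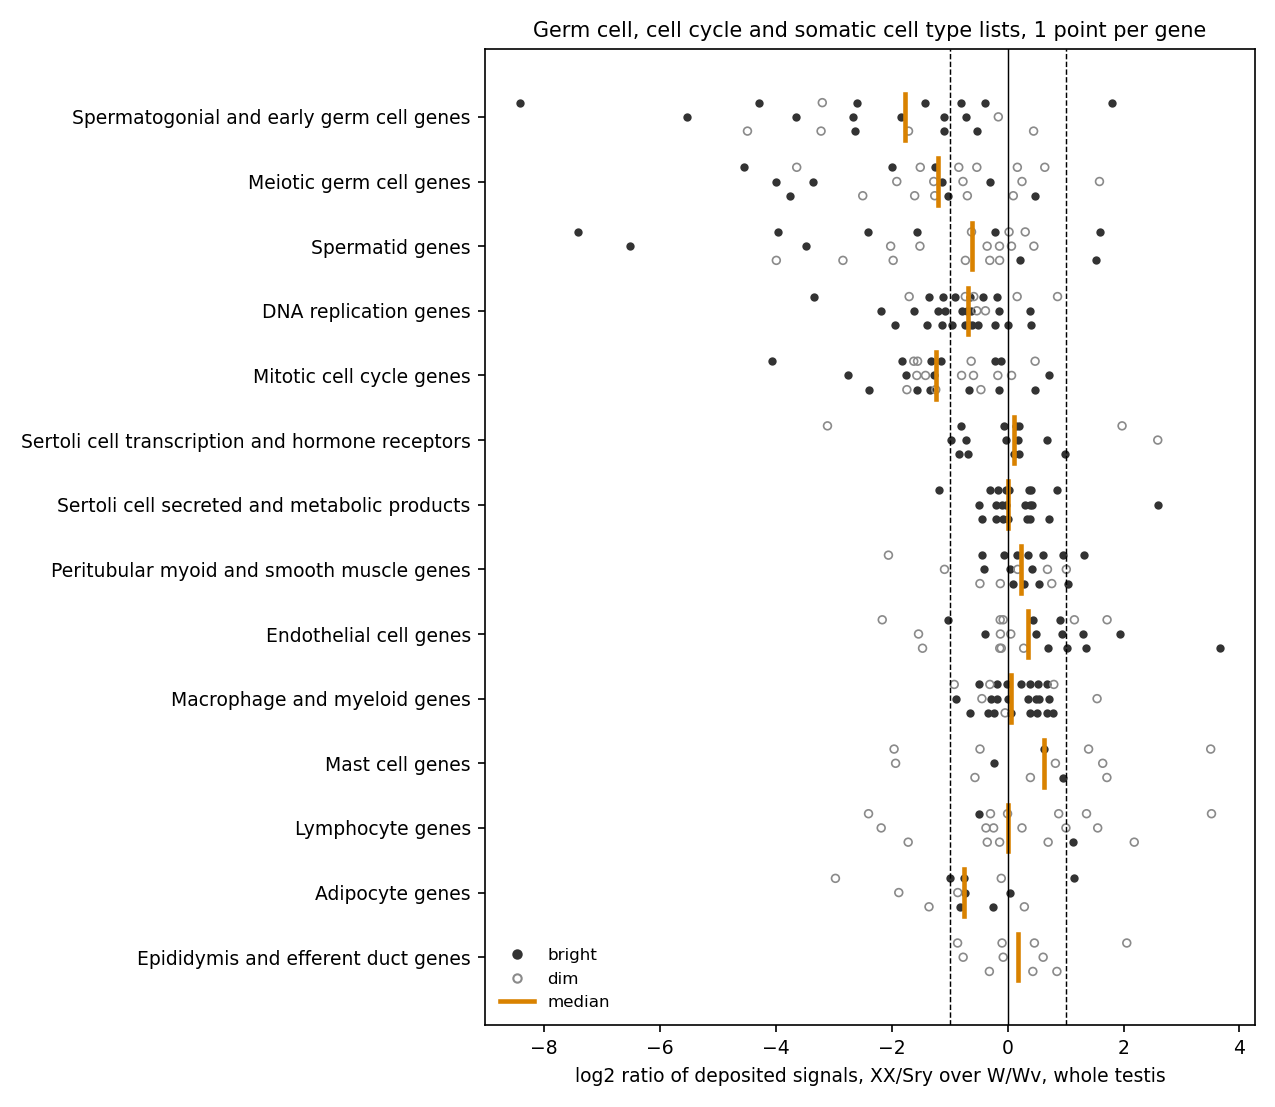
Log2 ratios of deposited signals, XX/Sry over W/Wv, for 14 gene lists in whole testis, 1 point per measured gene, filled for members and open for genes too dim to be members, with the list median as a bar and dashed lines at 2-fold. The germ cell and cell cycle lists lie to the left, with medians of deposited ratios from -1.77 to -0.62 that shrink when signals under the bound are raised to it, whereas the Sertoli lists centre on 0.12 and 0.00.

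The 250 bases before the start of the cell cycle genes were searched for the letters CCAAT, the core of the box bound by the factor NF-Y and known from the promoters of mitotic genes, on both strands. Promoters are those of RefSeq on GRCm38.p6. Of 23 mitotic genes with a listed promoter 18 held it (78.3%), beside 34.5% of all 27018 promoters. For the E2F site core GCGGGAA, on both strands, the counts were 5 of 29 replication genes (17.2%) and 0 of 23 mitotic genes, beside 3.83% of all promoters. A match is a description of letters and says nothing on binding in these testes. The promoters of 4 mitotic genes that were lower in XX/Sry are printed to show how the boxes are spaced, with CCAAT on either strand in capitals, followed by Mcm7, in which only the E2F core is in capitals.
Cdc20 (chr4:118437344-118437593, - strand): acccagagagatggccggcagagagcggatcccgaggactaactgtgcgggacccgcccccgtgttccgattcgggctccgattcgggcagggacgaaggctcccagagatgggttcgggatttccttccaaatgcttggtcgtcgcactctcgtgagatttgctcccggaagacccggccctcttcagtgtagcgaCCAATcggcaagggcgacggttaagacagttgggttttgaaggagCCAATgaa
Ccnb2 (chr9:70421555-70421804, - strand): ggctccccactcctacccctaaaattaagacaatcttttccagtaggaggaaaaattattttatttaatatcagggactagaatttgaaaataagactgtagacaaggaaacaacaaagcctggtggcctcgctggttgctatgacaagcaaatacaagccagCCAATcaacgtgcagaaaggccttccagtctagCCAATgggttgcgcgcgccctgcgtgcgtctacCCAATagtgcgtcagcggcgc
Cenpf (chr1:189688087-189688336, - strand): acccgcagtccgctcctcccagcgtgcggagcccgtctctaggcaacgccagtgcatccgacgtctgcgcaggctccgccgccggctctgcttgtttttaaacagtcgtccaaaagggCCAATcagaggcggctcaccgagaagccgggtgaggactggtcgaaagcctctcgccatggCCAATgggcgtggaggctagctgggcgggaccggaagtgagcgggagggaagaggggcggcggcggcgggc
Ube2c (chr2:164769679-164769928, + strand): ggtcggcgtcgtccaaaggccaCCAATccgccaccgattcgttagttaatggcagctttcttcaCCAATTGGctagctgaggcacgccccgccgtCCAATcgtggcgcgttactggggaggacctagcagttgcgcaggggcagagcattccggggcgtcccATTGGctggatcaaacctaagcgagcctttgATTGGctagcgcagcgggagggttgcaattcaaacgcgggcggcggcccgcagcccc
Mcm7 (chr5:138171884-138172133, - strand): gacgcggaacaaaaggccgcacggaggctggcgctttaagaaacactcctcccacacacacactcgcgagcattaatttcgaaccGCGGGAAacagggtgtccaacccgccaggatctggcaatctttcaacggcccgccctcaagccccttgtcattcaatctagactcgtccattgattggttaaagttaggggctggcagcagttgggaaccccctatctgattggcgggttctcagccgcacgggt
In Ccnb2 the 3 boxes began 87, 54 and 21 bases before the start, and in Cenpf the 2 boxes 132 and 71 bases before it. Cdc20 held 2 boxes, 53 and 8 bases before the start, and Ube2c held 6 matches, of which those starting 186 and 183 bases before the start overlap on opposite strands. The single E2F core of Mcm7 began 165 bases before the start.

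Sertoli cell genes mostly lay within 2-fold, some higher and some lower. Of the transcription factors and hormone receptors of this cell 14 were members and 0 passed 2-fold in either direction, with a median log2 ratio of 0.12. Sox9, the factor that commits the cell to its fate, gave 563 and 538, Gata4 795 and 878, the androgen-regulated homeobox gene Rhox5 3649.7 and 3565 and Fshr, the receptor for follicle-stimulating hormone, 528 and 606. The members nearest to the threshold were Gata1, at 1041 and 2074, 1.99 times the W/Wv signal, and Inhbb, the inhibin beta B subunit, at 3456 and 1767, 1.96 times lower, with a second probe set at 402 and 349. Inha, the shared alpha subunit of the inhibins, gave 13040.0 and 14898. Wt1, Dhh, Etv5 and Dmrt1 were between 1.6 and 1.79 times lower, at 1290.2 and 807, at 2005 and 1222, at 221 and 127 and at 1582 and 885. A second member probe set of Dhh did not differ, at 208.1 and 208.1. Dmrt1 is also made by spermatogonia.

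All 23 measured genes for products of Sertoli cells were members, and only Vnn1 was higher and only Espn lower, with a median log2 ratio of 0.00. Espn, espin, bundles actin at the junctions that hold spermatids, and it gave 906 and 401 (2.26-fold lower). Clu, clusterin, the brightest of the list, gave 29276 and 35925, and Ctsl, cathepsin L, gave 22056 and 21585. The cystatin-like genes Cst9 and Cst12 gave 10841 and 14101, and 23617 and 17422. Of the genes of lactate supply, Slc16a1, the monocarboxylate carrier, gave 2244 and 4049, Ldhb 10202 and 13152, Ldha 1443 and 1020.0 and the glucose transporter Slc2a1 851 and 689.5. Aard, a transcript abundant in Sertoli cells, gave 15783 and 15836, and Aldh1a1, a retinaldehyde dehydrogenase, gave 19905 and 26292.

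Genes of Leydig cell steroid synthesis differed unequally. Of 9 members among the enzymes of steroid synthesis, 1 was higher, 1 lower and 7 neither, and the median log2 ratio over the 11 measured was 0.15. Hsd17b3, which makes testosterone from androstenedione, gave 1930.2 and 3895 (2.02-fold higher). Hsd3b1, the enzyme that turns pregnenolone into progesterone, gave 7322 and 14284, 1.95 times the W/Wv signal, whereas Hsd3b3, its paralogue, gave 916 and 219 (4.18-fold lower). The Hsd3b genes are close copies of each other, and the Hsd3b3 probe set carries the _x_at suffix that Affymetrix gives to sets likely to cross-hybridise, so the split between them is uncertain. In tubules the same probe sets gave 1389 and 4172 for Hsd3b1 and 142 and 30 for Hsd3b3, again in opposite directions. Cyp11a1, which cuts the side chain of cholesterol, gave 5952 and 9195, Cyp17a1, the 17-hydroxylase and lyase, 17798 and 25437, and Star, which brings cholesterol into mitochondria, 3459 and 4974, at 1.54, 1.43 and 1.44 times the W/Wv signal. Star's other probe sets gave 2823 and 3947 and 2049 and 1869. The electron carrier Fdx1 gave 13731 and 11775 and Cyb5a 5196 and 5749.5.

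Among the genes that supply cholesterol to Leydig cells 0 of 10 members passed 2-fold on the probe sets used. For Dbi another member probe set did, at 2151 and 8469 (3.94-fold higher), and further ones gave 4898 and 7317 and 1019 and 1765. Abca1, a cholesterol exporter, gave 3389.6 and 6546, and Scarb1, the receptor for high density lipoprotein, gave 2599 and 4736, with its other probe sets at 1989 and 3544 and at 2123 and 4201. Tspo, the outer mitochondrial translocator protein, gave 1106 and 1479.7, Apoe 9798 and 11041 and Npc2 7947 and 8234. Within the enzymes that conjugate or interconvert steroids 2 of 9 members were higher. These were Sult1e1 and Akr1c14, a 3-alpha-hydroxysteroid dehydrogenase, at 107 and 225 (2.11-fold higher). Hsd17b12 gave 3665 and 2105, 1.74 times lower. Hsd17b11 was within 2-fold on the probe set used, but another member probe set gave 892 and 204 (4.37-fold lower).

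The genes of cholesterol synthesis lay within 2-fold, most of them on the higher side. All 20 measured were members and 0 passed 2-fold, but 17 of 20 had the higher signal in XX/Sry and the median log2 ratio was 0.51, beside -0.11 over all genes and -0.04 over member genes. Sc5d, a late desaturase, gave 1833 and 3448 and Fdft1, squalene synthase, 1779 and 3029.5, at 1.88 and 1.7 times the W/Wv signal. A second probe set gave 89.5 and 283 for Sc5d and 1352 and 2742 for Fdft1, past 2-fold in both. Fdps, Tm7sf2, Sqle and Nsdhl lay between 1.45 and 1.55 times the W/Wv signal, at 3591 and 5421, at 1148 and 1777, at 939 and 1358 and at 2693 and 3895. Early in the pathway Hmgcs1 gave 7859.9 and 8253 and Idi1 1986 and 1718, and Mvd, the mevalonate decarboxylase, gave 368 and 266, 1.38 times below W/Wv. Other member probe sets of Hmgcs1 differed more, at 2702 and 5186, at 5841 and 7632 and at 1418.5 and 2043. The second of Idi1 ran upward, at 291 and 540, and that of Mvd downward, at 322 and 250. The transcription factor Srebf2, which drives the pathway, gave 255 and 398, and its second member probe set ran the other way at 320.5 and 241.

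The letters CCAAT were found in 15 of 17 promoters of these genes (88.2%), again beside 34.5% of all promoters. The sterol element TCACNCCAC, on both strands, was in 1 of the 17 (5.88%), beside 1.04% of all. That gene was Hmgcs1, and its promoter is shown because it holds both, with both in capitals, the sterol element starting 137 bases before the start.
Hmgcs1 (chr13:119690101-119690350, + strand): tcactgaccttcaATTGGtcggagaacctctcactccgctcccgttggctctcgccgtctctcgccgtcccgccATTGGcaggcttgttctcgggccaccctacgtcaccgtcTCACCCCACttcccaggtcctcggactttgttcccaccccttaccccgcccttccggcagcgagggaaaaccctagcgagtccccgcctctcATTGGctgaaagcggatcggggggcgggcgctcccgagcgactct
Its CCAAT matches began 237, 176 and 45 bases before the start, all of them on the strand opposite to the one printed. The steroid enzymes with a promoter in the table, 7 in number, held no match to AAGGTCA, the core site of the Leydig cell factor NR5A1, on either strand, beside 4.05% of all promoters.

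Regulators of the Leydig cell were mostly within 2-fold, with 2 of 14 members higher and none lower. Pdgfra, the platelet-derived growth factor receptor of Leydig and stem cells, gave 1181 and 2526 (2.14-fold higher), but a second probe set gave 174 and 194, and in tubules it was lower, at 1836 and 847. Igf1 gave 1111 and 2354 (2.12-fold higher), with other probe sets at 351 and 383 and at 319 and 605. Nr5a1 gave 1150.0 and 1306, Vcam1, an adhesion protein, 3706 and 6278 and Gja1, connexin 43, 8807 and 7019. The other member probe sets of Vcam1 were past 2-fold upward, at 1250.2 and 2765 and at 2421 and 5968, and so was 1 of the others of Gja1, at 1262 and 2848, while the remaining ones of Gja1 lay within 2-fold on either side of 1.

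**Figure D4:**
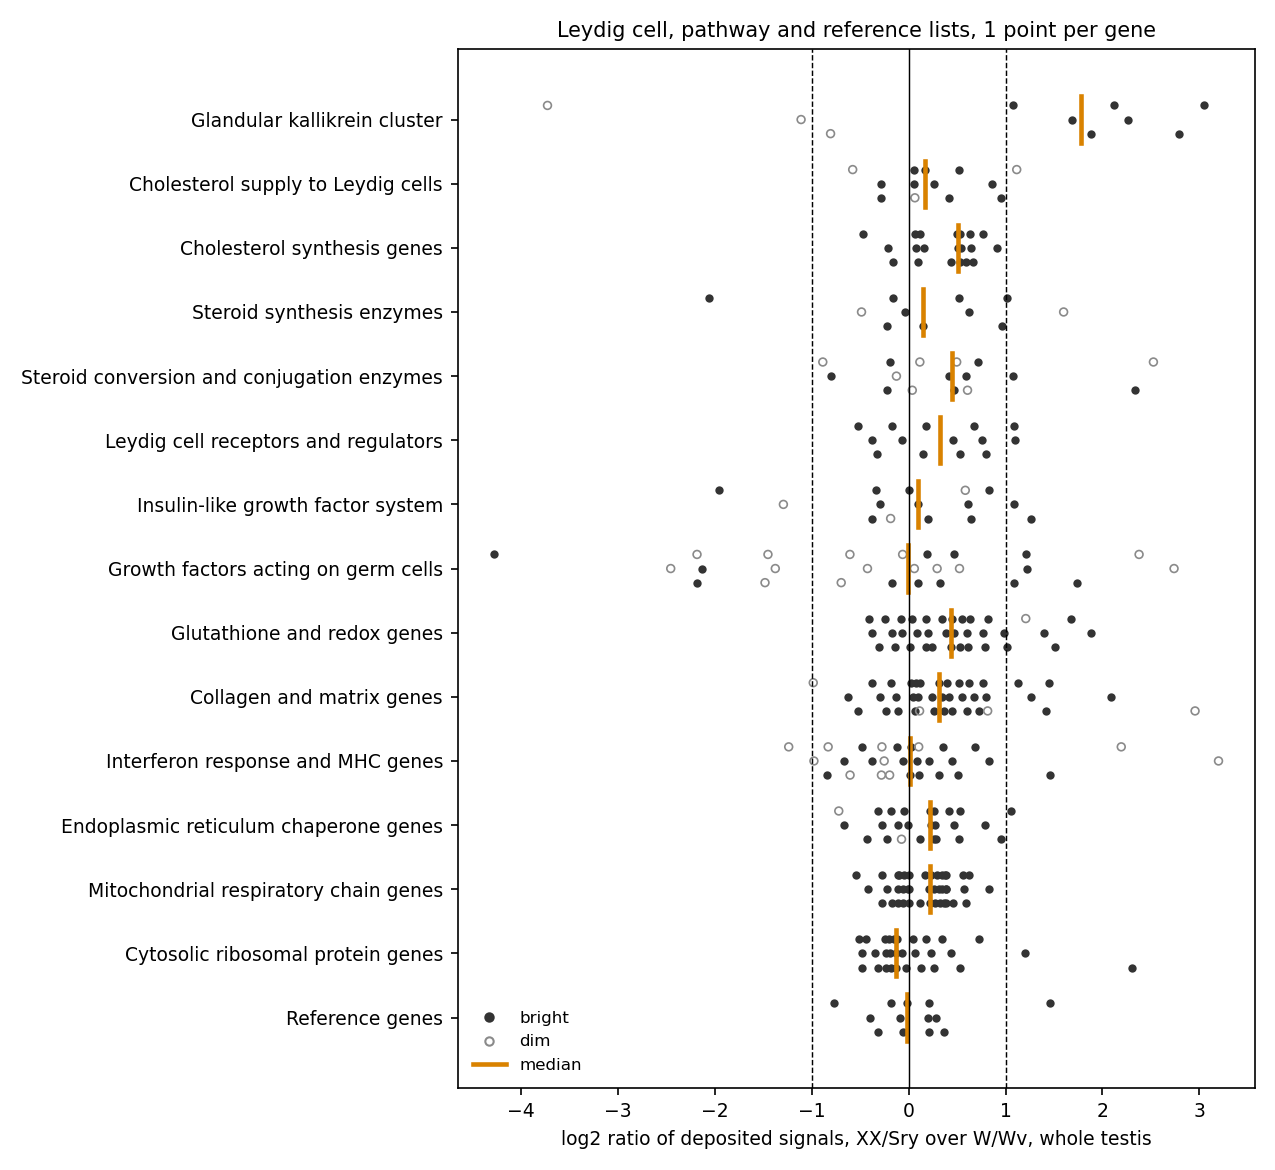
Log2 ratios of deposited signals, XX/Sry over W/Wv, for 15 further lists in whole testis, 1 point per measured gene, filled for members and open for dim genes, with the list median as a bar and dashed lines at 2-fold. The 7 kallikrein members lie right of the 2-fold line, the cholesterol synthesis genes lie around their median of 0.51 between the lines, and the reference genes around -0.02.

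Among the glandular kallikreins 3 genes that were bright on both arrays, Klk1b24, Klk1b21 and Klk1b27, were higher in XX/Sry by 8.28, 4.81 and 4.34 times. Kallikreins of this kind are serine proteases encoded side by side on chromosome 7, and in the mouse testis they are made by Leydig cells. Of 10 measured genes of the cluster 7 were members and all 7 were higher, but the other 4 were bright on the XX/Sry array only and became members through it, so the count of 7 is largely set by the brightness rule. Klk1b24 gave 2159 and 17868, Klk1b21 2029 and 9758 and Klk1b27 2023 and 8774. At lower signals Klk1b16 is given above, Klk1, the founder of the group, gave 106 and 391 (3.69-fold higher), Klk1b1 115 and 368 (3.21-fold higher) and Klk1b8 114 and 239 (2.11-fold higher). The other probe sets of Klk1 gave 24.5 and 346 and 116 and 190. The 3 dim genes had the lower signal in XX/Sry: Klk1b11 gave 118 and 8.9, Klk1b5 49.2 and 22.8 and Egfbp2 109 and 62.2. Klk1b5 lay under the bound on both arrays, where signals have no order, and its other probe set, also under both bounds, gave 7.7 and 31.3. In tubules the 7 members had the higher signal in XX/Sry as well, for instance Klk1b24 at 445 and 3652 and Klk1b27 at 274 and 2408.

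The genes of this cluster are related copies, and whether a probe set also reads the transcripts of a neighbouring gene was not tested, so their values may not be independent. The likeness of their upstream sequence, which is not that of the probes, was measured by local alignment of the 250 bases before each start (match 1, mismatch -1, gap opening -3, extension -1). Over 36 pairs identity ran from 75.5% to 98.1%. For Klk1b21 and Klk1b24, the pair with the highest identity, 210 of 214 aligned bases were identical (98.1%), and the value was 93% for Klk1b21 and Klk1b27 and 90.4% for Klk1b24 and Klk1b27. Klk1, on the other hand, was 77.1% identical to Klk1b24. The aligned stretches of the closest pair are printed with the 4 differing bases in capitals.
Klk1b21 (chr7:44102078-44102291, + strand): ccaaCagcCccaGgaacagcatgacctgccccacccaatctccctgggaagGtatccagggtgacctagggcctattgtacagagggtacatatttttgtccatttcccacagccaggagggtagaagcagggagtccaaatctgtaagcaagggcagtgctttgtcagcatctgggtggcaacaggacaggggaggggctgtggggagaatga
Klk1b24 (chr7:44187987-44188200, + strand): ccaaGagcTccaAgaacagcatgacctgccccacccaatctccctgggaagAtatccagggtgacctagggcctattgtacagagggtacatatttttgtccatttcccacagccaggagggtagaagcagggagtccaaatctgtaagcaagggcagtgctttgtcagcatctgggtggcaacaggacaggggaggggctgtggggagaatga
The Klk1b21 stretch ends 1 base before the annotated start and the Klk1b24 stretch 36 bases before it, so the annotated starts are not at the same place in the copies. The letters TATAAA were in none of the 9 kallikrein promoters in the table, beside 13% of all promoters, and the androgen receptor core site AGAACA was in 1 of 9 (11.1%), beside 16.2%.

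Growth factors that act on germ cells went both ways. Of 26 measured only 12 were members, with 4 higher, 3 lower and 5 neither, and of these 7 only Igf1 was bright on both arrays. Gdnf, the Sertoli cell factor that sustains spermatogonial stem cells, gave 217 and 49.4 (at least 3.39-fold lower). Wnt4, a Wnt ligand, gave 239 and 12.3 (at least 3.74-fold lower) and Tgfa, a ligand of the epidermal growth factor receptor, 187 and 41.1 (at least 2.93-fold lower). A second probe set of Tgfa, outside the members but with a higher mean log2 signal, gave 123 and 117. The higher genes were Vegfa, a growth factor for vessels, at 56.8 and 189 (at least 2.48-fold higher), Wnt5a at 118 and 275 (2.33-fold higher), Bmp4 at 119 and 277 (2.32-fold higher) and Igf1. Apart from Igf1, the dimmer signals of these genes ran from 12.3 (Wnt4) to 119 (Bmp4), under the bound or not far above it, and a dim second probe set of Wnt5a gave 99.7 and 103. In tubules Gdnf gave 283 and 159.9, and Wnt4 208 and 229, so neither was past 2-fold there. Cxcl12, the chemokine that holds stem cells, gave 3099 and 3541 and Csf1 459 and 633, with 1 of the other member probe sets of Csf1 at 23.9 and 218 (at least 2.86-fold higher) and the rest within 2-fold.

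In the insulin-like growth factor system 2 members were higher and 1 lower of 12, with a median log2 ratio of 0.09 over 15 measured. Htra1, a protease that cleaves binding proteins, gave 1824 and 4367 (2.4-fold higher), with a second probe set at 1729 and 3695. Igfbp3, the main carrier of Igf1 in blood, gave 1035 and 266 (3.89-fold lower), and it was lower in tubules too, at 1904 and 270.2 (7.05-fold lower). Igfbp2 gave 715 and 1270.1, Igfbp4 2394 and 1952, Igfbp6 5098 and 4034 and the receptor Igf1r 531 and 409.

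Some genes of vessels and of the tubule wall were higher. Of 12 endothelial members 5 were higher and 1 lower, and the median log2 ratio over 24 measured genes was 0.36. Of these 6 genes 2 were bright on both arrays, Cldn5, which was higher, and Robo4, which was lower. The other higher genes became members through the XX/Sry array, so the count of 5 is largely set by the brightness rule. Sox18 and Sox17, transcription factors of endothelium, gave 23.5 and 297 (at least 3.89-fold higher) and 59 and 226 (at least 2.96-fold higher). Cldn5, a tight junction protein, gave 229 and 565 (2.46-fold higher), the sialomucin Emcn 81.3 and 208 (2.56-fold higher) and Egfl7 175 and 358 (2.04-fold higher). The probe sets of Egfl7 conflict: another member gave 107 and 238 (2.22-fold higher), and dim ones gave 166 and 75.4 (2.2-fold lower) and 89.8 and 142. Sox17 had a dim second probe set at 115 and 88.9. Robo4, a guidance receptor of vessels, was lower at 468 and 229.9 (2.04-fold lower), and Cdh5, Eng and Ramp2 were within 2-fold, at 137 and 224, at 222 and 301 and at 250.3 and 352. The other 12 genes were dim, among them the defining markers Pecam1 at 37.7 and 13, under the bound on both arrays, and Vwf at 36.4 and 119.6. Of the higher endothelial genes, Sox18 and Sox17 had W/Wv signals under the bound and Emcn one just above it.

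Of 14 members among peritubular myoid and smooth muscle genes, Rgs5, a marker of pericytes, was higher at 217 and 539.5 (2.49-fold higher, with another member probe set at 112 and 299 and dim ones at 50.6 and 140.3 and at 127 and 137) and Tagln, transgelin, at 451 and 926 (2.05-fold higher), and none was lower. Acta2, smooth muscle actin, gave 5127 and 7449 and Myh11, smooth muscle myosin, 351 and 447. Of 35 collagen and matrix members 5 were higher, 2 of them bright on both arrays, and none lower, with a median log2 ratio of 0.31 over 39 measured. Col3a1, a fibrillar collagen, gave 2668 and 5829 (2.19-fold higher), with a second probe set at 208 and 390. Col1a1 gave 197 and 525 (2.67-fold higher) but 312 and 309 on a second probe set, and Col1a2, its partner chain, gave 3153 and 3989. Col4a1 was within 2-fold on the probe set used, but another member probe set gave 357 and 1052 (2.95-fold higher). Eln, elastin, gave 120.0 and 329 (2.74-fold higher), the crosslinking enzyme Lox 72.6 and 174 (at least 2.28-fold higher) and the laminin chain Lama4 40.8 and 173 (at least 2.27-fold higher). Lox had probe sets outside the members that ran the other way at 160 and 99.5 and at 32.3 and 3.9, and so did Lama4, at 128 and 26. The first of these had a higher mean log2 signal than the member probe set of Lox. In tubules Col1a1 and Col3a1 were lower in XX/Sry, at 259.7 and 72.4 and at 1854 and 846. Dcn, decorin, a proteoglycan of the interstitium, gave 9636 and 9835.

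Markers of other cells were mostly low on both arrays or within 2-fold. Of 23 macrophage members 0 passed 2-fold, and the median log2 ratio over 29 measured was 0.05: Csf1r, the macrophage growth factor receptor, gave 2703 and 3876, Adgre1, the antigen F4/80, 517 and 515 and C1qa, of complement, 1386 and 2392. Mast cells depend on Kit, and their listed genes summed to 2007 and 2308, but 10 of their 13 measured genes were too dim to be members, including Cpa3 at 79.7 and 105, Mcpt4 at 53.4 and 14 and Fcer1a at 3.8 and 43.1. The 3 mast cell members, Srgn, Gata2 and Hdc, are also made by other cells and were within 2-fold. Of lymphocyte genes 17 of 19 were dim, and the heavy chain gene Ighm, at 237 and 516 (2.18-fold higher), was higher from 1 of 11 probe sets, with other members at 255 and 204, at 268 and 397 and at 201 and 257. None of 10 epididymal genes was a member, their summed signal being 498 and 579, and the haemoglobin chains were dim, with Hba-a1 at 13.4 and 25.8. Of 7 adipocyte members Scd1, a desaturase also made by Leydig cells, was higher at 929 and 2065 (2.22-fold higher, with a second member probe set at 114 and 209), and Adipoq, the defining adipokine, was dim at 81.8 and 45.1. Most of the adipocyte list went the other way, with the lower signal in XX/Sry for 10 of 13 measured genes and 5 of the 7 members. Its median log2 ratio was -0.74, and -0.29 with signals raised to the bound.

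Among genes of antioxidant defence 5 were higher on the probe sets used, all of them bright on both arrays. Of 34 members 5 were higher and none lower, and the median log2 ratio over 35 measured was 0.44. Gpx3, the secreted glutathione peroxidase, gave 612 and 2247 (3.67-fold higher) and Sod3, the secreted superoxide dismutase, 527 and 1689 (3.2-fold higher), with a second probe set of Sod3 at 129 and 728. Hmox1, haem oxygenase 1, gave 269.7 and 769.6 (2.85-fold higher), the quinone reductase Nqo1 184 and 484 (2.64-fold higher) and Prdx3, a mitochondrial peroxiredoxin, 2519 and 5085 (2.02-fold higher). The brightest glutathione transferase, Gstm1, gave 16981 and 24826, and Sod1, the cytosolic superoxide dismutase, 3687 and 3105. Cat was within 2-fold on the probe set used, but another member probe set gave 422 and 1128 (2.67-fold higher). Another of Gsr had the lower signal in XX/Sry, at 845 and 491.

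Immune response genes were mostly alike, with 1 of 18 members higher. This was B2m, the light chain of class I molecules, at 2656 and 7319 (2.76-fold higher), with a second probe set at 2225 and 4893, while the heavy chains H2-K1 and H2-D1 gave 3054 and 3539 and 2832 and 3609.6. Of the endoplasmic reticulum chaperones only Pdia6, a disulfide isomerase, was higher on the probe sets used, at 1319 and 2753 (2.09-fold higher), and the chaperone Hspa5 gave 6329.9 and 8781. A dim second probe set of Pdia6 ran the other way, at 85.3 and 6.9. Hyou1 and Herpud1, within 2-fold on the probe sets used, had other member probe sets at 131 and 349 (2.66-fold higher) and at 330 and 731 (2.22-fold higher). Among the immediate early genes Egr3 was higher at 47.7 and 184 (at least 2.42-fold higher) and Egr2 lower at 189.8 and 87.6 (2.17-fold lower), transcription factors both, and Fos, Jun and Junb gave 283 and 216, 508 and 591, and 306 and 229. None of the 41 genes of the respiratory chain passed 2-fold, with a median log2 ratio of 0.22. Of 30 ribosomal protein genes Rpl22 and Rpl37 (at 300.1 and 690.1) were higher and the median was -0.13. Rpl41 and Rps15 were within 2-fold on the probe sets used, at 8463 and 14042 and at 7529.9 and 6918, but other member probe sets gave 978 and 23762 (24.3-fold higher) and 270.2 and 148 for Rpl41, and 2226 and 6591 (2.96-fold higher) for Rps15. Of 13 genes used as references only B2m passed 2-fold, and the median was -0.02, with Actb at 20748 and 19515, Hprt at 2083 and 2000.0 and Ywhaz at 3310.2 and 3266.

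X-linked genes had slightly larger ratios than autosomal genes. The 237 member genes of the X had a median log2 ratio of 0.15, and the 7136 autosomal member genes one of -0.05, a difference of 0.19 or 1.14-fold, and the 19 autosomes had medians between -0.14 and 0.02. Of the X genes 18 were higher (7.59%) and 8 lower (3.38%), beside 4.4% and 4.99% of autosomal genes. Among the 211 X genes within 2-fold the median was 0.10 and 123 had the higher signal in XX/Sry. The X genes with a Y partner, several of which escape silencing, were part of this: Kdm6a, a histone demethylase, gave 163 and 384 (2.35-fold higher), with a second probe set at 120 and 239, Kdm5c gave 53.5 and 183 (at least 2.4-fold higher), and Eif2s3x gave 1413 and 2466, 1.74 times the W/Wv signal. Ddx3x, an RNA helicase, gave 4292 and 4888 and Usp9x, a deubiquitinase, 1364 and 1363, with no difference of 2-fold. The second probe set of Kdm5c was dim at 57.8 and 62.1. The other higher X genes included Plac1, a secreted protein best known from placenta, at 837 and 2028 (2.42-fold higher), Ctps2, a CTP synthase, at 544 and 1296 (2.38-fold higher) and Vegfd, a lymphatic growth factor, at 696 and 1506 (2.16-fold higher). The 8 lower X genes were Taf7l, Nxf2, Tktl1, Sox3, a transcription factor of spermatogonia, at 205 and 25.1 (at least 3.21-fold lower), Fmr1nb at 200 and 27.6 (at least 3.13-fold lower), Scml2, a germ cell chromatin protein, at 246 and 88.4 (2.78-fold lower), Pola1 and the glypican Gpc4 at 1637 and 769 (2.13-fold lower).

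**Figure D5:**
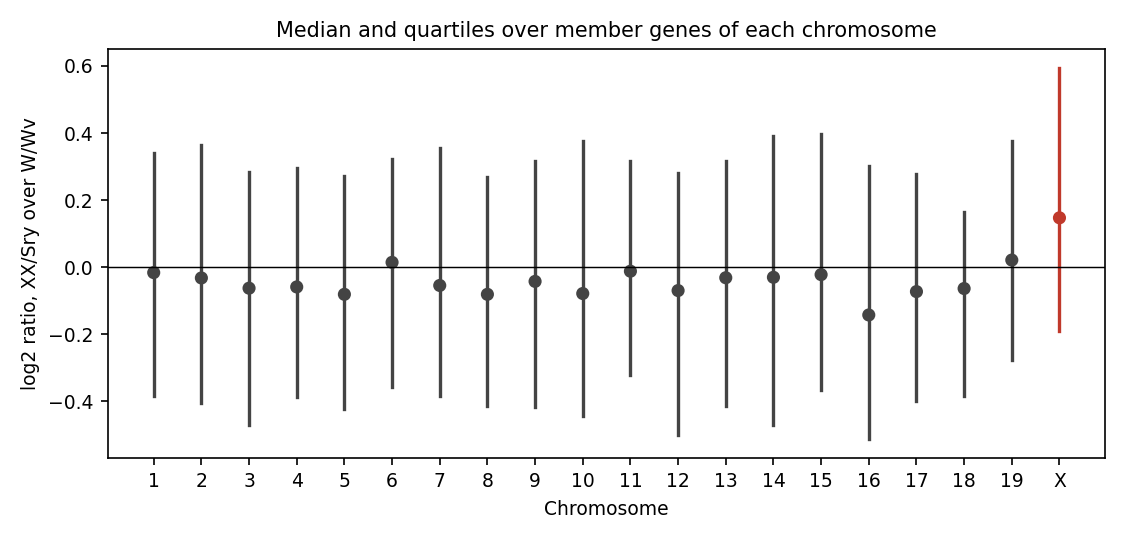
Median (point) and quartiles (line) of the log2 ratio, XX/Sry over W/Wv, over member genes of each autosome and of the X, which is in red. The X median of 0.15 lies above the autosomal medians, which run from -0.14 on chromosome 16 to 0.02 on chromosome 19, while the quartile ranges overlap.

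Probe sets of a gene did not always repeat a call. Of 185 called genes with further member probe sets all other member probe sets had the same direction in 147 (79.5%), at least 1 other was itself past 2-fold the same way in 65, and 2 had one past 2-fold the other way. Without the brightness rule all other probe sets had the same direction in 405 of 718 called genes (56.4%). The tubule arrays share no array with whole testis. Of the 332 higher genes 280 were also bright in tubules, and 85 of these (30.4%) were at least 2-fold higher there and 8 (2.86%) at least 2-fold lower. Of the 366 lower genes 237 were bright in tubules, with 44 (18.6%) at least 2-fold lower there and 3 (1.27%) at least 2-fold higher. Over all 6841 member genes bright in tubules 4.94% were at least 2-fold higher there and 3.76% at least 2-fold lower. The genes that met the 2-fold threshold in both tissues thus numbered 85 and 44, and they included Xist, Klk1b24, Klk1b21, Sult1e1 (70.5 and 1192 in tubules), Plbd1 (139 and 1829.8), Rpl22 (1585 and 5921), Eif2s3y (580.3 and 28.2) and Morc1 (307 and 93.9). Kit gave 139 and 569 in tubules, and Gpx3 347 and 849.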

How the data were processed

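Total RNA of W/Wv and XX/Sry whole testis and tubules was hybridised to 1 array each, so no value has a replicate error. The deposited values are MAS5 signals, linear intensities that the authors made with Microarray Suite 5.0, per the labels' protocols and the submitters' processing notes. AFFX controls (64 of 22690 probe sets) were left out. All 4 value columns were used (0 unused). From the deposited intensity of each probe set a log2 ratio and a fold of XX/Sry over W/Wv were computed with no further scaling. For calls and printed values a gene was read from its member probe set with the highest mean log2 signal, or from its brightest where none was a member. List medians, summed signals and counts over all measured genes of a list used the probe set with the highest mean log2 signal, member or not. These can differ within a gene, as they do for Lox and Tgfa. Gene names came from the platform's annotation: 20380 probe sets had 1 symbol, 691 several and 1555 none, and the last 2 kinds entered no gene count.

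The genes named are the 15 largest ratios each way, the members of each of 35 gene lists past 2-fold and, where these were under 4, its brightest, with Kit, Xist, Eif2s3y and Sry and close copies of named genes. Other genes were named after their values were seen. Members and lists were chosen with earlier results of these data known. Lists hold 809 symbols, 682 of them measured. The ovarian list had 6 members of 16 measured, 0 higher and 1 lower (Wnt4), and the haemoglobin list 1 of 6. Alternatives were division by the array median, quantile normalisation, a constant of 70.1 added, other brightness rules, signals raised to the bound, and other choices among a gene's probe sets. The calling was tested on simulated data with made changes well past 2-fold and little noise. That test checks the steps of the calling and does not bear on how reliable a 2-fold call from single arrays is. Python 3.11.15, pandas 2.3.3, NumPy 2.4.6, Biopython 1.88 and matplotlib 3.10.9 were used.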

Additional observations from a re-analysis of the deposited data

Results flagged for a closer look

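Among the genes named, 5 are listed here whose tubule arrays differed between the genotypes by at least 2-fold in the direction opposite to whole testis. The log2 ratio in tubules was -1.84 for Col1a1 (signals 259.7 and 72.4), -1.13 for Col3a1 (1854 and 846), -1.12 for Pdgfra (1836 and 847) and -1.43 for Lifr (3442 and 1273), where whole testis gave 1.42, 1.13, 1.10 and 1.62. For Cntd1 it was 1.16 in tubules (2089 and 4659) and -2.17 in whole testis. Prm1, lower in whole testis, also ran the other way in tubules on the probe set used, at 23.8 and 156 (at least 3.37-fold higher). Its W/Wv tubule signal lay under the bound, and its other probe sets lay under the bound on both tubule arrays. With 1 array for each genotype and tissue, the difference between the tissues was not tested.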

How the results depend on the processing

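The alternatives covered scaling, brightness, background and the choice of probe set. Leaving out a replicate was not possible with 1 array a group. No paired analysis was possible because each group had 1 array. The members numbered 6310 with the brightness rule at the 75th percentile and 22626 without it. Probe sets higher numbered 383 with a constant added to both signals, 296 at the 75th percentile and 2068 without the rule, and probe sets lower 355, 199 and 3354. The matching gene counts were 210, 173 and 980 higher and 218, 127 and 1654 lower. Dividing each array by its median, or quantile normalisation (which moved the median log2 ratio over all probe sets from -0.11 to 0.00), kept each count within 1.5 times, at 778 and 524 or 695 and 561 probe sets. The X minus autosome difference of 0.19 stayed above 0, between 0.07 (no brightness rule) and 0.19. With a gene's probe set of smallest ratio the sign turned for Sry (-0.37), Col1a1 (-0.016), Ighm (-0.32) and Kdm5d (1.04). It turned for Klk1b5 with the mean of its probe sets (0.46), and for Fcer1a with signals raised to the bound (-0.26), and for Zfy2 likewise (-0.26), where both signals lie under unequal bounds by construction. The kallikrein median of 1.78 was 1.32 with the constant added, and the spermatogonial median of -1.77 was -0.90 at the 75th percentile. Raising signals to the bound took the median of the Sertoli transcription factor list from 0.12 to -0.03 and that of the macrophage list from 0.05 to -0.0076, and the smallest ratios took that of the Sertoli products from 0.00 to -0.03. No depth is defined for arrays: their number limits the precision, and signals under the bound have no order.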

Other observations

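Among called genes on none of the lists, the 15 brightest each way were read after their values were known, and the following are taken from them. Agt, angiotensinogen, the precursor of angiotensin, gave 7095 and 14816 (2.09-fold higher). Fads2, a fatty acid desaturase, gave 3744 and 8000.4 (2.14-fold higher), Acsbg1, an acyl-CoA synthetase, 4295 and 9812 (2.28-fold higher), and Cd36, a fatty acid and lipoprotein receptor, 1626 and 4735 (2.91-fold higher). Gas6, a ligand of the TAM receptors with which Sertoli cells engulf dying germ cells, gave 3000.1 and 6888 (2.3-fold higher), and Tkt, transketolase, gave 2917 and 6216 (2.13-fold higher). Eppin, a protease inhibitor of Sertoli cells and epididymis, gave 2551 and 6391 (2.51-fold higher), and Glul, glutamine synthetase, 3430.3 and 7678 (2.24-fold higher).

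Among the lower ones, Pabpn1, a nuclear poly(A)-binding protein, gave 14636 and 5559 (2.63-fold lower), and Atp1b1, a subunit of the sodium pump, gave 3404 and 1243 (2.74-fold lower). Plagl1, an imprinted zinc finger factor, gave 2479.5 and 1030.4 (2.41-fold lower), and Tex19.2, a relative of Tex19.1, 3064 and 1332 (2.3-fold lower). Cntd1, a cyclin-like protein of meiotic crossover sites, gave 6098 and 1357 (4.49-fold lower) in whole testis and 2089 and 4659 in tubules, and Lifr, the receptor of leukaemia inhibitory factor, gave 1729.6 and 5307 (3.07-fold higher) in whole testis and 3442 and 1273 in tubules. For both the tubule difference ran the other way, and the difference between the tissues was not tested.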
